A study of Mus musculus with 2 samples.

Results

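The genes described here encode channels, pumps and pump modulators with which salivary ducts take sodium and chloride back from saliva. They are Scnn1a, Scnn1b and Scnn1g, which encode the α, β and γ subunits of the epithelial sodium channel ENaC; Cftr, a chloride channel; Slc9a3, the apical sodium and proton exchanger NHE3; Atp1b1, the β1 subunit of the Na,K-ATPase; and Fxyd2 and Fxyd3, small membrane proteins of the FXYD family that bind the Na,K-ATPase. The set was chosen by gene name, with earlier results of these data known, and all 8 were present among the 27998 genes of the deposited tables. Their UMIs, tags that each mark 1 captured molecule, were counted in cells that had 200 genes or more and a mitochondrial share below 20%. The cells came from submandibular glands, major salivary glands, of adult mice aged 12 weeks, and were run on the 10x Chromium 3' platform. The genotypes, p63 wild-type and p63 KO, had 1 library each. The transcription factor p63, encoded by Trp63, maintains basal cells of stratified and glandular epithelia. The labels do not say how or in which cells p63 was removed, which allele was used, or whether glands were pooled. A label calls the material epithelial progenitor cells, but the gland was dissociated whole and both libraries held endothelial-like and immune-like clusters.

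Saliva is made in acini as an isotonic, sodium-rich fluid and becomes hypotonic as it passes along the ducts. Luminal duct cells admit sodium through ENaC and chloride through CFTR on the apical side, and the Na,K-ATPase of the basolateral membrane drives the uptake. In rodents the ducts comprise intercalated ducts next to the acini, granular convoluted tubules, striated ducts and excretory ducts. ENaC works as an assembly of its subunits, the pump as a pair of an α and a β subunit, and FXYD proteins tune the pump's affinity for sodium and potassium.

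Depth was 8811082 UMIs over 1970 barcodes for the wild-type and 11828669 UMIs over 4726 barcodes for the KO library. The filter left 1663 wild-type cells (median 3406 UMIs) and 2423 KO cells (median 2088). The mitochondrial share was at least 20% in 12.4% of wild-type and 40.7% of KO barcodes. Trp63 had 149 UMIs in the wild-type library (18.8 CPM, a count scaled by the summed UMIs of the cells concerned; 95% exact Poisson interval 15.9 to 22.1) and 20 in the KO library (2.91 CPM, 1.78 to 4.49). The libraries shared 11 barcodes, 7 of them kept in both. With 1 library per genotype no difference has a replicate check, no test was made, and intervals cover counting error alone. Differences were instead read by a rule of size, passed by genes with 50 or more UMIs over the groups compared whose 95% interval of the ratio was wholly beyond 2-fold. Because the platform tags transcript ends, levels were compared between cells for the same gene, and ratios between genes were compared only from class to class.

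Each library was clustered without the 8 genes, and clusters were named from marker genes with the ending "-like", since the names rest on RNA alone. Striated or excretory duct-like cells (35 wild-type and 117 KO), ionocyte-like cells (55 and 183) and granular tubule-like cells (158 and 358) are called luminal duct classes below. Intercalated duct-like (329 and 252) and basal duct-like cells (398 and 109) were the other duct classes. The striated or excretory duct-like cluster was led in both libraries by Duox2 and Duoxa2, which encode a hydrogen peroxide-forming oxidase and its maturation factor, and had none of its own markers among its top 10 genes. The KO granular tubule-like class joined 2 clusters, of 244 and 114 cells. In the KO library 3 clusters with 14.0% of cells stayed unnamed: cluster 4 (195 cells, led by Sprr1a and Ndrg1), cluster 11 (102 cells, with the ionocyte gene Foxi1 and the granular tubule gene Egf both among its leading genes) and cluster 15 (43 cells). The median mitochondrial share was 11.1 to 14.0% in the luminal duct classes of the wild-type and 12.2 to 15.3% in those of the KO library, against 6.08 and 6.52% in intercalated duct-like cells, so the luminal classes lay nearer the limit for keeping a cell than these did.

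On the mouse genome (GRCm38), Scnn1g (ENSMUSG00000000216; chromosome 7, 121734479 to 121768475, plus strand) and Scnn1b (ENSMUSG00000030873; chromosome 7, 121865038 to 121918514, plus strand) are neighbours with 96562 bases between them. Scnn1a (ENSMUSG00000030340) lies apart on chromosome 6, 125320659 to 125344943, plus strand. Cftr (ENSMUSG00000041301; chromosome 6, 18170687 to 18322768, plus), Slc9a3 (ENSMUSG00000036123; chromosome 13, 74121457 to 74169442, plus), Fxyd2 (ENSMUSG00000059412; chromosome 9, 45399669 to 45410278, plus), Fxyd3 (ENSMUSG00000057092; chromosome 7, 31068172 to 31076704, minus) and Atp1b1 (ENSMUSG00000026576; chromosome 1, 164437109 to 164458355, minus) complete the set. On the opposite strand Scnn1b overlaps Cog7, Atp1b1 overlaps Nme7 and Fxyd3 overlaps Lgi4, genes with 153, 73 and 6 UMIs over all kept cells. The sources used here do not say whether counting used strand, so reads of such partners cannot be told apart.

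RefSeq promoter sequences (GRCm38.p6) were matched for 6 of the 8 genes, and the 250 bases before the start site are shown for 3. Scnn1g and Scnn1b are shown because they are the neighbouring ENaC genes, and Fxyd3 because its highest level among the named classes, unlike theirs, was outside the luminal duct. Capitals mark GC boxes, the letters GGGCGG on either strand, and sequences are written 5′ to 3′ on the gene's strand. The windows are chr7:121734229-121734478 (plus), chr7:121864788-121865037 (plus) and chr7:31076698-31076947 (minus).
Scnn1g: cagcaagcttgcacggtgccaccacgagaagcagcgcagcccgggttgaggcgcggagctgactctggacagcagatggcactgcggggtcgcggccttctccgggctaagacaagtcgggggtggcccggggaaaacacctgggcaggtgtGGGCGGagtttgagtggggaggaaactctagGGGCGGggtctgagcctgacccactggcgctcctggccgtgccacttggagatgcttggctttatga
Scnn1b: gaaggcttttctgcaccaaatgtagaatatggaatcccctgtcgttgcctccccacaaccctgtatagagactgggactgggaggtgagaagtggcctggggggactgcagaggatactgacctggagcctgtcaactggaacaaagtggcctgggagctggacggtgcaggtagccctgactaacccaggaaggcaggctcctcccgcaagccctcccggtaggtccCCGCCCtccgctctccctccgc
Fxyd3: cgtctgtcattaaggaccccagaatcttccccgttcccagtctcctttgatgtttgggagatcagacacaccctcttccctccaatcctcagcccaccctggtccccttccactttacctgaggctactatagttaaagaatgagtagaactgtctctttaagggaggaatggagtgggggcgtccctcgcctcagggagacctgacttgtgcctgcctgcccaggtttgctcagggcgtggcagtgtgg
The Scnn1g window held 2 GC boxes, beginning 98 and 67 bases before the start site, the Scnn1b window 1, beginning 22 bases before it, and the Fxyd3 window 0, with no overlaps. The Cftr, Slc9a3 and Atp1b1 windows held 6, 3 and 2, some of those of Cftr overlapping. GC boxes were in 32.7% of the 32851 windows of this length. Also searched, on both strands, were the forkhead core TGTTTA (in 12.0% of windows), the nuclear receptor palindrome ACANNNTGT (5.84%) and the box TATAAA (12.4%). None of these was found in any of the 6 windows. Matches of letters are a description of these windows only.

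Scnn1a, the α subunit, was highest among the named classes in striated or excretory duct-like cells of both libraries, while the unnamed KO cluster 11 had 180 CPM. In the wild-type library its level there was 423 CPM (311 to 563; 47 UMIs), against 120 CPM (74.3 to 184) in ionocyte-like and 64.6 CPM (43.2 to 92.7) in granular tubule-like cells. The first 2 of these intervals did not overlap, so the wild-type levels stepped down after the striated or excretory class. KO cells of the same classes had 169 CPM (126 to 222; 51 UMIs), 113 CPM (82.4 to 150) and 101 CPM (81.7 to 124), and neighbours in that order overlapped. Intercalated duct-like cells had 8.94 CPM (4.89 to 15) in wild-type and 66.6 CPM (51.6 to 84.6) in KO cells. Basal duct-like cells had 14.9 CPM (9.57 to 22.2) and 76.4 CPM (49.9 to 112). Acinar-like cells, which were counted for contrast, had 3.31 and 11.1 CPM.

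Free RNA in droplets gives UMIs to cells that do not make a transcript, and immune-like cells, which are not epithelial, were used to gauge it. They had 2.64 CPM of Scnn1a (0.0668 to 14.7; 1 UMI in 129 cells, median depth 2600) in wild-type and 12.0 CPM (4.81 to 24.6; 7 UMIs in 356 cells, median depth 1493) in KO cells. The wild-type intercalated duct-like level overlapped this interval, and the KO intercalated and basal duct-like levels lay above it. They also lay above the level of KO endothelial-like cells (17.1 CPM, 7.82 to 32.5), but overlapped that of KO red cell-like barcodes (35.3 CPM, 11.5 to 82.3; 5 UMIs). At least 1 Scnn1a UMI was present in 71.4% of wild-type and 29.9% of KO striated or excretory duct-like cells (37.1 and 14.5% after thinning each cell to 1000 UMIs). The corresponding shares of immune-like cells were 0.775 and 1.40% (thinned, 0 and 0.562%).

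Scnn1b, the β subunit, was spread more evenly over the luminal duct classes. Wild-type levels were 198 CPM (124 to 300) in striated or excretory duct-like, 154 CPM (120 to 194) in granular tubule-like and 114 CPM (69.8 to 177) in ionocyte-like cells, with overlapping intervals. KO levels were 296 CPM (246 to 354) in ionocyte-like, 228 CPM (178 to 289) in striated or excretory duct-like and 204 CPM (175 to 235) in granular tubule-like cells. Neighbours in the KO order also overlapped, but ionocyte-like lay above granular tubule-like cells. Immune-like cells had 7.92 and 15.4 CPM. Intercalated duct-like cells had 3.83 and 5.97 CPM, acinar-like cells 1.84 and 2.76 CPM, and basal duct-like cells 6.85 CPM (3.42 to 12.2) in wild-type and 44.1 CPM (24.7 to 72.7) in KO cells. The KO basal interval overlapped that of KO immune-like cells (7.03 to 29.2). KO red cell-like barcodes were at 77.6 CPM (38.7 to 139; 11 UMIs) and the unnamed KO clusters 4 and 11 at 77.5 and 309 CPM, all above the immune-like interval.

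Scnn1g, the γ subunit, had the fewest UMIs of the ENaC genes, 36 for the wild-type and 155 for the KO library. Its levels were 54.1 CPM (19.8 to 118), 35.6 CPM (20.4 to 57.9) and 11.4 CPM (1.38 to 41.3) in striated or excretory duct-like, granular tubule-like and ionocyte-like cells of the wild-type library. KO levels were 89.4 CPM (58.9 to 130), 47.3 CPM (34.3 to 63.8) and 44.0 CPM (26.1 to 69.6). The order of the means was that of the wild-type library, and neighbours overlapped in both. KO basal duct-like cells had 35.3 CPM (18.2 to 61.6) from 12 UMIs, against 2.49 CPM (0.678 to 6.37) from 4 UMIs in the wild-type library. Immune-like cells had 0 UMIs in the wild-type library and 5.13 CPM from 3 UMIs in the KO library. KO endothelial-like cells were at 9.50 CPM (5 UMIs). KO red cell-like barcodes were at 14.1 CPM (2 UMIs), with an interval that overlapped the KO basal one.

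**Figure D1:**
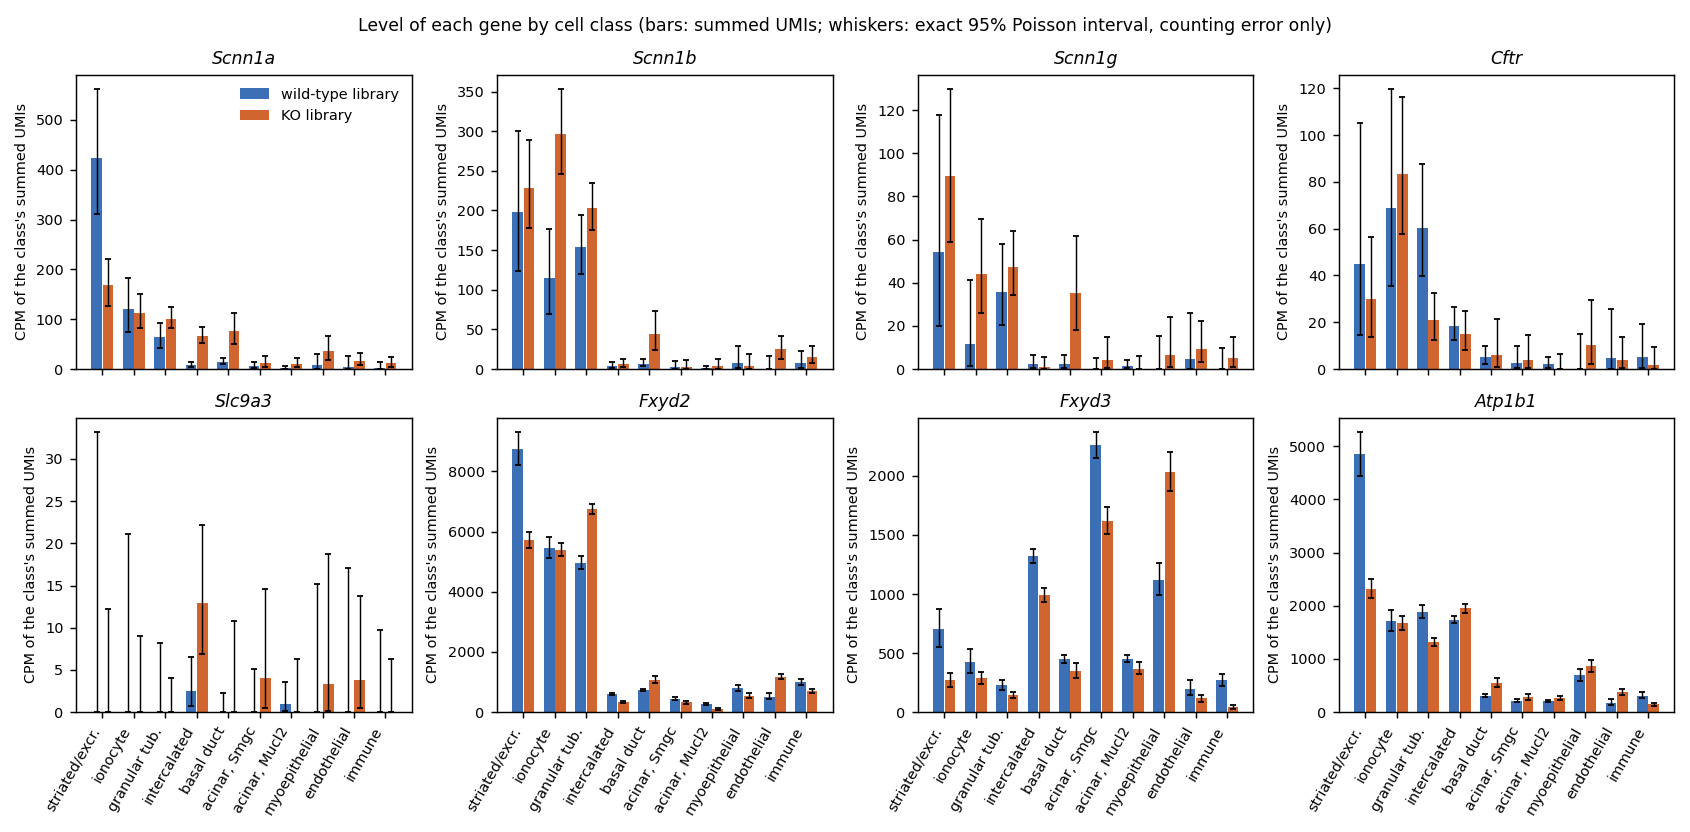
Level of each of the 8 genes (CPM of summed UMIs, linear axes from 0 that differ between panels) in 10 cell classes of each library, the acinar-like pool drawn as its Smgc-rich and Mucl2-rich clusters; bars are levels and whiskers 95% exact Poisson intervals. Scnn1a, Scnn1b, Fxyd2 and Atp1b1 sit higher in striated or excretory duct-like cells than in both acinar-like clusters of both libraries, whereas Fxyd3 in the Smgc-rich cluster, at 2263 CPM in the wild-type and 1621 CPM in the KO library, sits above all 5 duct classes.

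Cftr, through which chloride follows sodium, was highest in ionocyte-like cells of both libraries. Wild-type levels were 68.6 CPM (35.5 to 120) in ionocyte-like, 60.1 CPM (39.6 to 87.5) in granular tubule-like and 45 CPM (14.6 to 105) in striated or excretory duct-like cells, and these intervals overlapped. KO levels were 83.2 CPM (57.6 to 116), 20.9 CPM (12.6 to 32.7) and 29.8 CPM (13.6 to 56.5) in the same order of classes, so ionocyte-like cells stood apart from the others. In intercalated duct-like cells Cftr was at 18.5 CPM (12.4 to 26.6; 29 UMIs) and 14.9 CPM (8.35 to 24.6; 15 UMIs), where Scnn1b had 6 and 6 UMIs and Scnn1g 4 and 1. Those cells held 29.9% of wild-type and 12.7% of KO Cftr UMIs. Immune-like cells had 5.28 CPM (0.639 to 19.1) and 1.71 CPM (0.0433 to 9.52) of Cftr, from 2 and 1 UMIs, and these intervals overlapped those of intercalated duct-like cells.

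Slc9a3, the exchanger, was barely detected, with 6 UMIs for the wild-type and 19 for the KO library. Of these, 4 and 13 lay in intercalated duct-like cells, at 2.55 CPM (0.696 to 6.54) and 12.9 CPM (6.89 to 22.1). Striated or excretory duct-like, ionocyte-like, granular tubule-like and basal duct-like cells had 0 UMIs in both libraries. In striated or excretory duct-like cells a count of 0 allows levels up to 27.0 CPM in wild-type and 9.93 CPM in KO cells, and in granular tubule-like cells up to 6.68 and 3.30 CPM. Slc9a3 was thus not detectable in the luminal duct classes at this depth.

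Atp1b1, the pump's β1 subunit, marked the luminal and intercalated ducts alike. Wild-type levels were 4847 CPM in striated or excretory duct-like, 1888 in granular tubule-like, 1734 in intercalated duct-like and 1721 in ionocyte-like cells, against 312 in basal duct-like, 211 in acinar-like and 311 in immune-like cells. The striated or excretory class stood alone at the top, and the next 3 overlapped. KO levels were 2317 CPM in striated or excretory duct-like, 1952 in intercalated duct-like, 1669 in ionocyte-like and 1311 in granular tubule-like cells, against 552 in basal duct-like, 270 in acinar-like and 144 in immune-like cells. No neighbours among the first 6 classes of the KO order overlapped. The basal duct-like level was at the immune-like background in the wild-type library and above immune-like cells in the KO library. There it overlapped the level of red cell-like barcodes (416 CPM), and endothelial-like cells were at 373 CPM.

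Fxyd2, the γ modulator of the pump, was detected in all 35, 55 and 158 cells of the wild-type luminal duct classes. Its levels there were 8758, 5460 and 4972 CPM in striated or excretory duct-like, ionocyte-like and granular tubule-like cells, and 5719, 5405 and 6757 CPM in the KO library. The 2 KO granular tubule-like clusters differed, at 5601 CPM in cluster 2 and 11956 CPM in cluster 8. Cluster 8 was shallower, with a median of 1336 UMIs against 3026.5, and had a median mitochondrial share of 2.04 against 14.5%. Scnn1a ran the other way in them, at 118 and 24.2 CPM. Immune-like cells had 1008 CPM of Fxyd2 in wild-type and 692 CPM in KO cells, with UMIs in 77.5 and 47.5% of cells. The wild-type levels of intercalated duct-like (608 CPM), basal duct-like (741) and acinar-like cells (317) were below that and are read as background, as are the KO levels of intercalated duct-like (344) and acinar-like cells (207). KO basal duct-like cells, at 1084 CPM, were above immune-like cells. Their level overlapped that of KO endothelial-like cells (1184 CPM) and was below that of red cell-like barcodes (1545 CPM), which are not epithelial either. It is therefore not told apart from background.

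Fxyd3, the other FXYD gene, had a different distribution. Its wild-type levels were 2263 CPM in Smgc-rich acinar-like, 1321 in intercalated duct-like, 1118 in myoepithelial-like, 703 in striated or excretory duct-like, 451 in Mucl2-rich acinar-like, 449 in basal duct-like, 423 in ionocyte-like and 227 in granular tubule-like cells. KO levels were 2031 CPM in myoepithelial-like, 1621 in Smgc-rich acinar-like, 991 in intercalated duct-like, 369 in Mucl2-rich acinar-like, 350 in basal duct-like, 286 in ionocyte-like, 268 in striated or excretory duct-like and 142 in granular tubule-like cells. Granular tubule-like cells were thus the lowest of these classes in both libraries. Immune-like cells had 269 CPM in the wild-type library, so the wild-type granular tubule-like level was within background, and 39.3 CPM in the KO library. That immune-like difference passed the size rule (ratio of KO over wild-type 0.146, 0.0886 to 0.231, beside 4.26% of genes called lower), so the background of Fxyd3 itself differed between the libraries. The immune-like classes also differed in their cells, being macrophage-like and T or NK-like in wild-type and myeloid-like and T or NK-like in KO cells.

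Across the 8 genes, 6 had their highest level among the named classes in a luminal duct class of each library, the exceptions being Fxyd3 and Slc9a3. With unnamed clusters counted, the KO levels of Scnn1a and Scnn1b were highest in cluster 11. Luminal duct cells were 14.9% of wild-type and 27.2% of KO cells. They held 63% of Scnn1a, 78.7% of Scnn1b, 66.7% of Scnn1g, 45.4% of Cftr, 50.2% of Fxyd2, 28.1% of Atp1b1 and 4.11% of Fxyd3 UMIs in the wild-type library. In the KO library they held 39.9, 64.4, 56.8, 52.5, 62.9, 36.6 and 9.54% in the same order of genes. The unnamed KO clusters held a further 30.4% of Scnn1a, 25.1% of Scnn1b, 25.2% of Scnn1g, 26.3% of Cftr, 21.6% of Fxyd2, 19.8% of Atp1b1 and 7.38% of Fxyd3 UMIs. Cluster 11 had 180 CPM of Scnn1a, 309 CPM of Scnn1b (251 to 378), 74.1 CPM of Scnn1g and 51.6 CPM of Cftr. Cluster 4 had 145 CPM of Scnn1a and 77.5 CPM of Scnn1b.

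Each duct class was set against acinar-like cells of its own library, since acini secrete the fluid from which ducts take salt. In the wild-type library 3 of 4 genes with enough UMIs were higher past the size rule in striated or excretory duct-like cells, 2 of 3 in ionocyte-like, 3 of 4 in granular tubule-like, 1 of 3 in intercalated duct-like and 1 of 3 in basal duct-like cells. Of all genes tested, 31, 32.1, 28.3, 57.9 and 49.4% were called higher in these comparisons, so the intercalated and basal counts were within the background. In the KO library the counts were 4 of 5, 4 of 5, 4 of 5, 2 of 4 and 1 of 3, beside 19.5, 25.4, 19.2, 24.9 and 24.5% of all genes. Acinar-like cells held few ENaC UMIs, so for these genes being higher was close to a condition of being counted. Wild-type Scnn1a, with 9 acinar-like UMIs, was counted with 47 UMIs in striated or excretory duct-like but not with 21 in ionocyte-like cells. The calls of ENaC genes therefore say little beside the shares of all genes. Fxyd2, Fxyd3 and Atp1b1, with 864, 2541 and 574 wild-type and 225, 1018 and 293 KO acinar-like UMIs, were counted whatever their direction. The median gene was log2 0.83 to 1.22 higher in the wild-type and 0.56 to 0.87 higher in the KO duct classes than in acinar-like cells.

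The ratios of the genes called in luminal classes lay well beyond that shift. Scnn1a was 128-fold higher (62.1 to 297) in wild-type and 15.3-fold higher (8.03 to 31.5) in KO striated or excretory duct-like cells. Scnn1b was 83.7-fold higher (34.2 to 266) in wild-type granular tubule-like cells, and 82.6-fold, 107-fold and 73.7-fold higher in KO striated or excretory duct-like, ionocyte-like and granular tubule-like cells. These folds rest on the few acinar-like UMIs given above, at 3.31 and 11.1 CPM of Scnn1a and 1.84 and 2.76 CPM of Scnn1b. Immune-like cells had 2.64 and 12.0 CPM of Scnn1a and 7.92 and 15.4 CPM of Scnn1b. The acinar-like levels were thus at background, as were those of Fxyd2, and the sizes of such folds are not firm. Fxyd2 was higher in all 3 luminal classes, by 15.7-fold to 27.6-fold in wild-type and 26.1-fold to 32.6-fold in KO cells. Atp1b1 was higher in them by 8.16-fold to 23.0-fold and 4.86-fold to 8.58-fold, and in intercalated duct-like cells by 8.22-fold and 7.23-fold. Fxyd2 also passed in basal duct-like cells, at 2.34-fold and 5.23-fold, but both rest on levels within the range of cells that are not epithelial, and the wild-type value turned to the other direction with median ratio scaling (log2 -0.29).

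Fxyd3 was lower in luminal and basal duct-like than in acinar-like cells of the KO library. In the KO library the ratio of duct over acinar-like CPM was 0.286 (0.225 to 0.359) in striated or excretory duct-like, 0.305 (0.25 to 0.370) in ionocyte-like, 0.151 (0.125 to 0.182) in granular tubule-like and 0.373 (0.306 to 0.451) in basal duct-like cells, all past the size rule. There, 2.99, 3.42, 2.94 and 3.69% of genes were called lower. In the wild-type library only the granular tubule-like ratio of 0.243 (0.198 to 0.297) passed, beside 2.43% of genes. Within the acinar-like pool, Smgc-rich cells had 2263 and 1621 CPM of Fxyd3 and Mucl2-rich cells 451 and 369 CPM.

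ENaC needs its subunits in the same cell, and UMIs of different subunits were therefore counted per cell. At least 1 subunit was seen in 225 of 1663 wild-type cells (13.5%, 95% exact binomial interval 11.9 to 15.3%) and 703 of 2423 KO cells (29.0%, 27.2 to 30.9%). At least 2 were seen in 43 and 179 cells, and all 3 in 4 and 26. With every cell thinned to 1000 UMIs, 85 and 350 cells had at least 1 subunit, 4 and 41 at least 2, and 0 and 1 all 3. At this depth fewer subunits can be seen than a cell holds, and free RNA can add UMIs to cells that make none, so the counts are no bound in either direction.

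By class, at least 1 subunit was seen in 31 of 35 wild-type (88.6%) and 75 of 117 KO (64.1%) striated or excretory duct-like cells. In ionocyte-like cells it was 30 of 55 (54.5%) and 108 of 183 (59.0%), and in granular tubule-like cells 75 of 158 (47.5%) and 184 of 358 (51.4%). The 95% intervals of the libraries overlapped in these classes except the striated or excretory one (73.3 to 96.8% and 54.7 to 72.8%). Intercalated duct-like cells had 21 of 329 (6.38%) and 46 of 252 (18.3%), and basal duct-like cells 33 of 398 (8.29%) and 42 of 109 (38.5%). Immune-like cells, the background, had 4 of 129 (3.1%) and 15 of 356 (4.21%). The unnamed cluster 11 had 81 of 102 cells with a subunit, and 9 of the 26 KO cells with all 3.

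**Figure D2:**
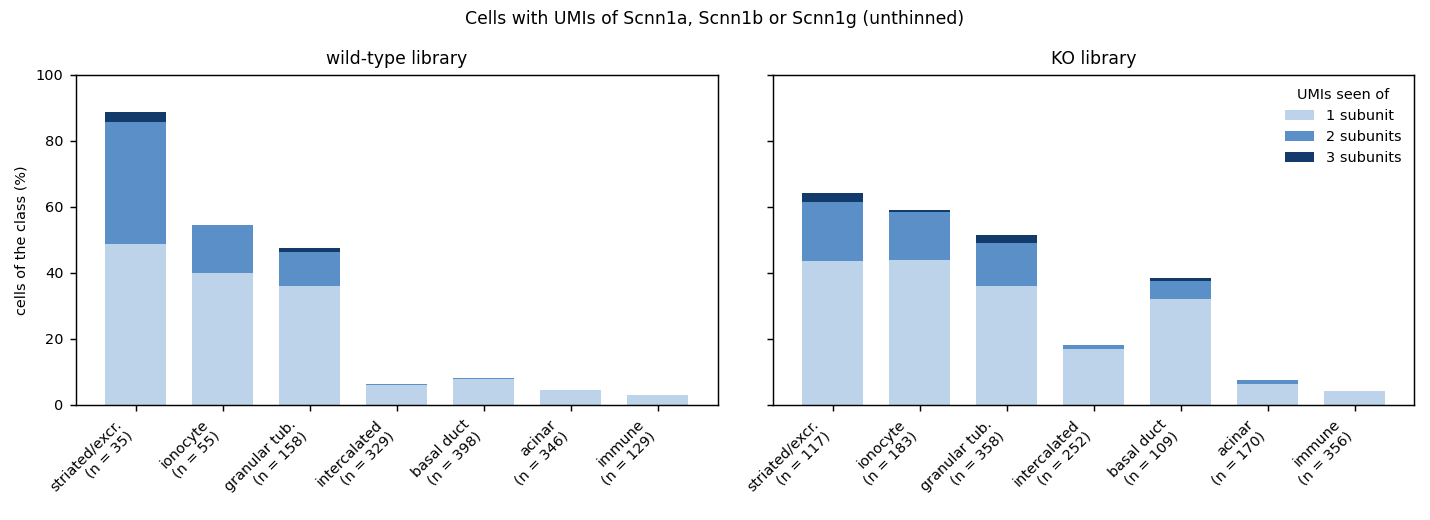
Share of cells (%) of each class with UMIs of 1, 2 or 3 ENaC subunits, stacked, in the wild-type and KO libraries, without thinning and with no intervals drawn. Bar heights, the share with at least 1 subunit, run from 88.6% and 64.1% in striated or excretory duct-like cells to 3.1% and 4.21% in immune-like cells.

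As the classes were drawn, the balance of subunits differed between luminal classes in the wild-type library. The striated or excretory class there had 35 cells, and the ratios were not recomputed with the classes drawn otherwise. The ratio of Scnn1b to Scnn1a UMIs was 0.468 (95% exact interval 0.269 to 0.792) in wild-type striated or excretory duct-like, 0.952 (0.490 to 1.85) in ionocyte-like and 2.38 (1.52 to 3.81) in granular tubule-like cells. In the KO library it was 1.35 (0.929 to 1.98), 2.63 (1.86 to 3.78) and 2.01 (1.56 to 2.61). The wild-type granular tubule-like interval lay wholly above the striated or excretory one, whereas the KO intervals of the striated or excretory class overlapped those of the other luminal classes. The KO interval lay above the wild-type one in striated or excretory duct-like cells and, only just (1.86 against 1.85), in ionocyte-like cells. The intervals overlapped in granular tubule-like cells. In intercalated duct-like cells Scnn1a was seen almost without its partners in the KO library, with 67 Scnn1a, 6 Scnn1b and 1 Scnn1g UMIs (ratio of Scnn1b to Scnn1a 0.0896, 0.0317 to 0.205). KO basal duct-like cells had 26, 15 and 12.

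The ratio of Fxyd3 to Fxyd2 was 0.0457 to 0.0802 in the luminal classes of the wild-type and 0.0210 to 0.0530 in those of the KO library. Intercalated duct-like cells were at 2.17 and 2.88 and acinar-like cells at 2.94 and 4.52. Basal duct-like cells were between, at 0.605 and 0.322. Fxyd2 in these last 3 classes was not told apart from background, so their ratios are no balance of the 2 genes within the class. Immune-like cells were at 0.267 in wild-type and 0.0568 (0.0356 to 0.0864) in KO cells. The KO value overlapped those of KO striated or excretory duct-like and ionocyte-like cells, so a low ratio was not particular to luminal classes.

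**Figure D3:**
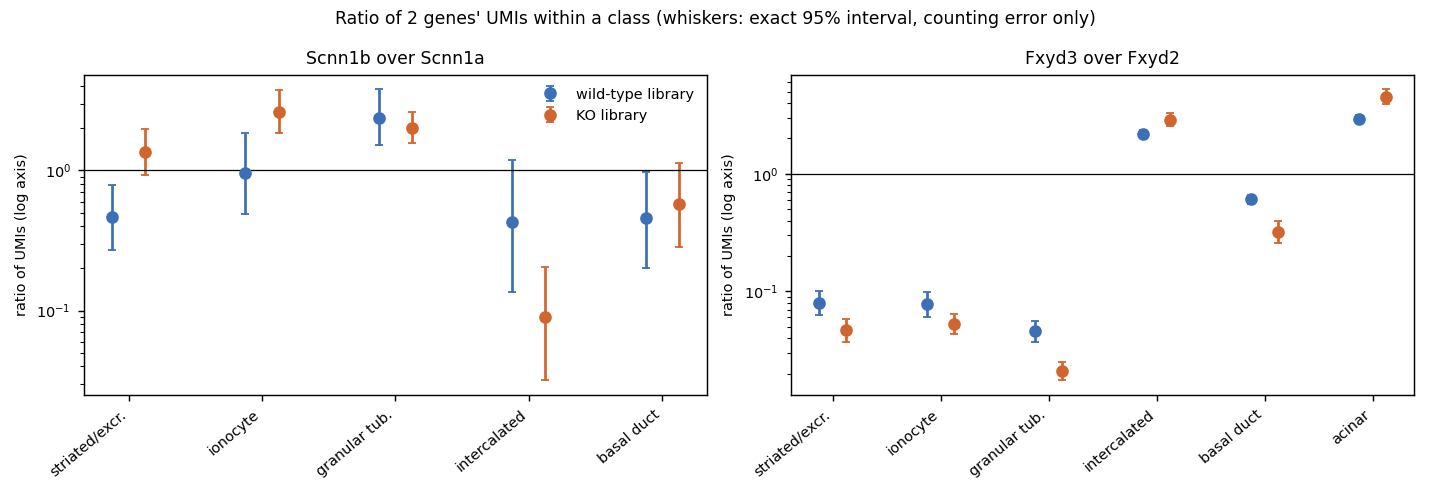
Ratios of UMIs between paired genes by class in the wild-type and KO libraries (log axis) with 95% exact intervals. Scnn1b over Scnn1a is 0.468 in wild-type striated or excretory duct-like and 2.38 in wild-type granular tubule-like cells, and 0.0896 in KO intercalated duct-like cells.

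Over all kept cells, 4 of the 7 genes with enough UMIs were higher in the KO library past the size rule and 0 were lower, where 6.72% of 10285 genes were called higher and 2.49% lower. Scnn1a had 154 wild-type and 474 KO UMIs, a ratio of KO over wild-type CPM of 3.55 (2.96 to 4.29). Scnn1b had 141 and 582 (ratio 4.76, 3.96 to 5.77), and Scnn1g 36 and 155 (4.97, 3.44 to 7.36). Fxyd2 had 8292 and 16021 UMIs (2.23, 2.17 to 2.29). The other 3 did not pass: Cftr at 1.40 (1.06 to 1.86), Atp1b1 at 1.35 (1.30 to 1.40) and Fxyd3 at 0.639 (0.613 to 0.667). Slc9a3, at 3.65 (1.40 to 11.2), had too few UMIs. Over whole libraries, more luminal duct cells and more RNA of a gene per cell cannot be told apart, and the KO library had the larger share of luminal duct cells (27.2 against 14.9%). Thinned to 1000 UMIs per cell, Scnn1a had a ratio of 2.51 (1.77 to 3.64) and only Scnn1b (3.75) still passed. Under a filter of 500 genes or more and a mitochondrial share below 10%, Fxyd2 (1.71) and Scnn1g no longer passed. Fxyd2 also fell short with median ratio scaling (1.81) and without the unnamed clusters (2.04).

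**Figure D4:**
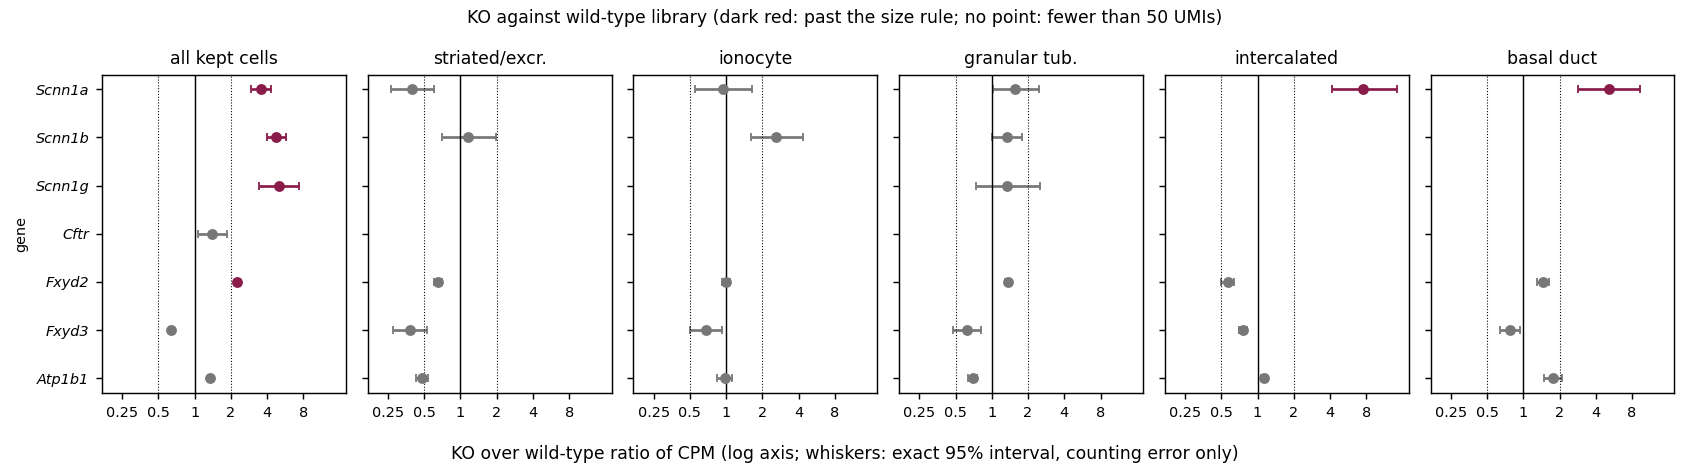
Ratio of KO over wild-type CPM (log axis) of each gene with at least 50 UMIs over all kept cells and within each duct class, with 95% exact conditional intervals and lines at 2-fold; Slc9a3 is not plotted. Over all kept cells Scnn1a, Scnn1b, Scnn1g and Fxyd2 lie wholly beyond 2-fold, whereas within classes, among genes with at least 50 UMIs, Scnn1a alone does, at 7.46 in intercalated duct-like and 5.11 in basal duct-like cells.

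Within the luminal duct classes no gene of the set passed the size rule between the libraries. In striated or excretory duct-like cells 0 of 5 genes with enough UMIs passed, where 3.26% of all genes were called higher and 5.49% lower. Ratios of KO over wild-type there were 0.399 (0.263 to 0.606) for Scnn1a, 0.381 (0.276 to 0.527) for Fxyd3, 0.478 (0.427 to 0.536) for Atp1b1, 0.653 (0.603 to 0.707) for Fxyd2 and 1.15 (0.704 to 1.96) for Scnn1b. These intervals lay below 1 for all but Scnn1b, without being wholly beyond 2-fold. The wild-type cluster was named from Klk1, Tfcp2l1, Gstm1, Krt7, Krt19 and Cldn4, but the KO cluster from Klk1, Tfcp2l1 and Krt7 alone. Whether the 2 hold like cells was not tested. The wild-type class had 35 cells, and these ratios hung on how the class was drawn. Scnn1a was at 0.942 with the libraries clustered together, 1.22 with a per-cell marker gate, 2.71 (1.90 to 3.87) without the mitochondrial limit and 0.309 without the deepest cells of each cluster, past the rule. Atp1b1 moved to 1.04 (0.896 to 1.20) at Leiden resolutions 0.5 and 2, where the KO class had 17 cells, and to 1.48 (1.34 to 1.63) without the mitochondrial limit. Fxyd2 moved to 1.12 (1.04 to 1.21) with the marker gate and 1.32 (1.24 to 1.42) without the mitochondrial limit. Fxyd3 stayed below 1 in the settings that kept the class, at 0.323 to 0.682.

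In ionocyte-like cells 0 of 5 passed (1.67% of genes called higher, 2.6% lower). Scnn1b came nearest, at 2.59 (1.60 to 4.39; 20 wild-type and 121 KO UMIs), while Scnn1a was 0.938 (0.548 to 1.65), Atp1b1 0.970 (0.845 to 1.11) and Fxyd2 0.990 (0.917 to 1.07). In granular tubule-like cells 0 of 6 passed (1.95% called higher, 1.38% lower). Scnn1a was 1.57 (1.02 to 2.47), Scnn1b 1.33 (1 to 1.77), Scnn1g 1.33 (0.733 to 2.53), Fxyd2 1.36 (1.29 to 1.43), Fxyd3 0.625 (0.479 to 0.819) and Atp1b1 0.694 (0.635 to 0.759). Cftr had too few UMIs there, 27 for the wild-type and 19 for the KO library, for a ratio of 0.348 (0.183 to 0.649). The KO granular tubule-like class pooled clusters 2 and 8, at 5601 and 11956 CPM of Fxyd2 and 118 and 24.2 CPM of Scnn1a. The wild-type cluster had 4972 and 64.6 CPM of these genes. Ratios without cluster 8 were not computed, so the pooled ratios depend on it to an extent not tested.

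Scnn1a was higher in the KO library in the other duct classes. In intercalated duct-like cells it had 14 wild-type and 67 KO UMIs, a ratio of 7.46 (4.15 to 14.4), as 1 of 4 genes tested (1.8% of genes called higher, 2% lower). Both KO clusters of the class carried it, at 61.3 and 81.1 CPM. In basal duct-like cells it had 24 and 26 UMIs in 398 and 109 cells, a ratio of 5.11 (2.82 to 9.30), again as 1 of 4 (1.31% higher, 1.97% lower). Scnn1b (11 and 15 UMIs, 6.44, 2.76 to 15.5) and Scnn1g (4 and 12 UMIs, 14.2, 4.29 to 60.3) had too few UMIs for the rule there. Over the other settings the Scnn1a ratio was 6.70 to 18.3 in intercalated and 4.84 to 7.82 in basal duct-like cells, but thinned cells and those under the strict filter of 500 genes and 10% mitochondrial share held too few Scnn1a UMIs to pass in either class. The basal count also fell below 50 UMIs at Leiden resolution 2, with the marker gate and without the deepest cells. With the libraries clustered together, which that range leaves out, only 2 and 3 KO cells fell in these classes, with 0 Scnn1a UMIs. The libraries thus clustered apart for these cells, and whether the classes hold like cells was not tested. Both wild-type basal duct-like clusters were named from Krt5, Krt14, Krt15, Krt17, Trp63, Col17a1 and Dst, but the KO cluster from Krt14, Krt17 and Dst alone.

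Values of free RNA beside these ratios were as follows. Scnn1a in immune-like cells was 1 UMI in wild-type and 7 in KO cells, a ratio of 4.53 with an interval of 0.582 to 204. In endothelial-like cells it was 1 and 9 UMIs (3.70, 0.512 to 162). Klk1, a kallikrein gene of luminal ducts, was at 2913 CPM in wild-type and 1781 CPM in KO intercalated duct-like cells and at 3522 and 2315 CPM in basal duct-like cells. It went from 7568 to 6038 CPM in immune-like cells but from 3543 to 8035 CPM in endothelial-like cells, where Fxyd2 was at 518 and 1184 CPM (ratio 2.29, 1.87 to 2.82). Klk1 thus did not move one way in these 4 classes. The ratio of Fxyd2 was 0.566 (0.499 to 0.641) in intercalated and 1.46 (1.30 to 1.65) in basal duct-like cells. Among the remaining genes, Fxyd3 was 0.750 and 0.779 and Atp1b1 1.13 and 1.77 in the 2 classes. The part of free RNA in the Scnn1a difference was not tested.

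Other genes of salt transport, from lists chosen by function, gave context over all kept cells. Of 17 regulators of ENaC, 15 had enough UMIs, 1 was higher and 0 were lower in the KO library, with a median log2 ratio of 0.26 against 0.18 over all genes. Beside the 6.72% of all genes called higher and 2.49% called lower, that count was at the background. The gene past the rule was Tsc22d3, a steroid-induced regulator of ENaC, at 3.87-fold. Sgk1, the aldosterone-induced kinase that keeps ENaC at the cell surface, was at 1.80, and Spint2, an inhibitor of proteases that cleave ENaC, at 0.936. Within classes, Tsc22d3 was higher in intercalated (4.34-fold) and basal duct-like cells (7.15-fold), beside 1.8 and 1.31% of genes called higher. Its ratio in acinar-like cells was 2.84. Sgk1 was lower in KO ionocyte-like (ratio 0.257) and granular tubule-like cells (0.390), beside 2.6 and 1.38% of genes called lower. In acinar-like cells Sgk1 went the other way, from 24.6 CPM in wild-type to 71.0 CPM in KO cells. By cluster it went from 66.2 to 140 CPM in Smgc-rich and from 9.51 to 13.5 CPM (19 and 8 UMIs) in Mucl2-rich cells. Mucl2-rich cells were 156 of 346 wild-type but 29 of 170 KO acinar-like cells, so the pooled levels also reflect the mix.

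Of 10 other Na,K-ATPase and FXYD genes, 5 were tested, 2 were higher and 0 lower, with a median of 0.97, beside 6.72% of all genes called higher and 2.49% lower. The 2 were Fxyd5 (3.44-fold), which had its UMIs largely in immune-like cells at 351 and 719 CPM, and Fxyd1 (20.6-fold; 6 and 107 UMIs). Of 16 acid-base and chloride transporters, 11 were tested, 2 were higher and 0 lower (median 0.31), beside the same shares of all genes. Among them was Bsnd, which encodes barttin, a membrane protein of chloride-transporting epithelia, at 4.11-fold (2.61 to 6.69; 25 and 89 UMIs).

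Of 10 duct potassium channels, 8 were tested, 0 were higher and 1 lower (median 0.42), beside 6.72 and 2.49% of all genes. The lower gene was Kcnn4, a calcium-activated potassium channel, at 0.178. Kcnma1, the large-conductance channel, was at 2.07 (1.79 to 2.40). Of 8 genes of acinar fluid secretion, all were tested, 0 were higher and 2 lower (median 0.06), beside the same shares. The 2 were Aqp5, the water channel of acini, at 0.242, and Kcnn4, which is on both lists. Acinar-like cells were 20.8% of wild-type and 7.02% of KO cells. Slc12a2, the cotransporter that loads acinar cells with chloride, was at 1.01, but in granular tubule-like cells it was lower in the KO library (0.0867; 114 and 20 UMIs), as was the calcium release channel Itpr2 (0.317). Slc12a2 in immune-like cells was also lower (0.0944; 48 and 7 UMIs).

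Likeness of pattern was described by Pearson's r of log2(CPM + 10) over 27 class sums of both libraries, among 9809 genes with at least 50 UMIs. These sums share libraries and depth, so r is given without a test. Scnn1b was most like Atp6v0d2, a proton pump subunit and ionocyte marker (0.952), then Itgb6 (0.922), Fxyd2 (0.919) and Adra1a (0.915). Genes most like Scnn1a included Erbin (0.868), Wfdc2 (0.867), Rragd (0.859) and Scnn1g (0.854), and those most like Scnn1g included Rragd (0.873) and Scnn1b (0.864). Between subunits r was 0.808 for Scnn1a with Scnn1b, 0.854 for Scnn1a with Scnn1g and 0.864 for Scnn1b with Scnn1g.

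Cftr was most like Amot (0.893) and Ly6k (0.878). Genes most like Atp1b1 included Eya2 (0.905) and Tfcp2l1 (0.889), a transcription factor used here as a duct marker. Fxyd2 was most like Scnn1b, Itgb6 (0.904) and Tmem52 (0.889). Fxyd3 was most like Spint2 (0.860) and Tom1l1 (0.857), and its r with Fxyd2 was -0.07.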

How the data were processed

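For each of the 2 libraries of 10x Chromium 3' single-cell RNA-seq the authors deposited a table of unnormalized UMI counts, genes by barcodes. Per the submitters' processing notes, Seurat 3.1.2, bcl2fastq 2.19.1, the build mm10 and Cell Ranger 2.1.0 were used, with no roles stated; the choice of barcodes and the use of strand are not given in the sources used here. The filter on cells asked for 200 genes or more and a mitochondrial share below 20%. Each library was clustered on its own with scanpy 1.11.5 and leidenalg 0.10.2 (2000 variable genes, 30 components, 15 neighbours, resolution 1), leaving out the 8 genes, the pathway lists and Trp63. A cluster name needed 3 markers 2-fold higher than in other cells, and the limits for naming were chosen once clusters had been inspected. Scrublet marked 1 wild-type and 4 KO cells (0.0601 and 0.165%) and so had not worked; leaving out cells above the 95th percentile of depth of their cluster was tried in its place. UMIs were summed per class and scaled by the class total. Ratios have exact conditional 95% intervals; log2 ratios add 10 CPM to both sides. A count of 0 is given a limit of 3 counts. The tables of all genes were checked on simulated counts. Named genes were the 8 members, the genes of each list past the size rule and its 3 with the most UMIs, and the 5 genes most like each member, of which the text gives up to 5. The members and lists were chosen with earlier results of these data known. Values of some list genes are not reported here.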

Additional observations from a re-analysis of the deposited data

Results flagged for a closer look

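For 3 genes the KO over wild-type ratio pointed one way in 1 duct class and the other way in another, with intervals on opposite sides of 1. The difference between the classes was not tested, and with 1 library per genotype it has no replicate check. Scnn1a was 7.46 (4.15 to 14.4) in intercalated duct-like cells and 0.399 (0.263 to 0.606) in striated or excretory duct-like cells. The first ratio rests on 14 wild-type and 67 KO UMIs. The second moved to 0.942 with the libraries clustered together and to 2.71 without the mitochondrial limit. Fxyd2 was 1.46 (1.30 to 1.65) in basal duct-like and 0.566 (0.499 to 0.641) in intercalated duct-like cells. Its wild-type levels in both classes and its KO intercalated level were below those of immune-like cells. Its KO basal level overlapped that of endothelial-like cells. The basal ratio was 1.13 (0.986 to 1.30) without the deepest cells of each cluster, and the intercalated ratio turned to 1.32 (1.15 to 1.501) with the marker gate, on the same side of 1 as the basal ratio. Atp1b1 was 1.77 (1.49 to 2.09) in basal duct-like and 0.478 (0.427 to 0.536) in striated or excretory duct-like cells. The latter moved to 1.04 (0.896 to 1.20) at Leiden resolutions 0.5 and 2 and turned to 1.48 (1.34 to 1.63) without the mitochondrial limit, on the same side of 1 as the basal ratio. The KO basal level of Atp1b1 overlapped that of red cell-like barcodes. In endothelial-like cells, which are not epithelial, the Atp1b1 ratio was 2.07 (1.46 to 2.99).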

How the results depend on the processing

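No paired analysis was possible because each genotype had 1 library and the labels give no replicate numbers. Alternatives without the deepest cells, shared barcodes or unnamed clusters were chosen after seeing the data. Of 823 values of 70 results on single genes, 763 kept their direction and their side of the size rule, 18 fell short of it, 14 newly passed it and 28, from 17 results, turned direction. Of those that turned, 26 passed the rule neither before nor after. The other 2 were, with median ratio scaling, wild-type Fxyd2 in basal duct-like against acinar-like cells (log2 -0.29) and wild-type Fxyd3 in intercalated duct-like against acinar-like cells (log2 -1.15). Adding 1 or 50 CPM in place of 10, or asking for 10 UMIs in place of 50, could change neither direction nor call of these results. The 70 values of each such setting are among the 763 and say nothing about stability. By setting, 8 turned with the marker gate, 6 with median ratio scaling, 4 without the mitochondrial limit, 3 each with the libraries clustered together, at Leiden resolution 2 and when thinned, and 1 at resolution 0.5. They include KO over wild-type in striated or excretory duct-like cells for Scnn1a (log2 -1.28 to 1.38 without the mitochondrial limit), Atp1b1 (-1.06 to 0.56) and Fxyd2 (-0.61 to 0.40), and wild-type Atp1b1 in basal duct-like against acinar-like cells (0.55 to -0.90 with median ratio scaling). The 4 genes past the rule over all kept cells became 2 under the strict filter (500 genes or more, mitochondrial share below 10%) and 1 with cells thinned to 1000 UMIs. The number of within-class calls, taken over any gene of the set in any duct class, was 2 as reported. It became 1 at Leiden resolution 2, 1 with the strict filter, 1 with the marker gate and 0 with the libraries clustered together. It was 0 when thinned, 4 with a minimum of 10 UMIs and 5 without the mitochondrial limit. The call under the strict filter was neither of the 2 reported Scnn1a calls, which had too few UMIs there. Calls of duct over acinar-like cells, 10 for the wild-type and 15 for the KO library, became 20 and 24 with a minimum of 10 UMIs and 4 and 4 with the strict filter, and 9 in the KO library when thinned. The 6 KO genes highest in a luminal duct class became 3 with the strict filter. Cells with at least 2 ENaC subunits, 43 and 179, became 14 and 35 with the strict filter, 4 and 41 when thinned, and 360 in the KO library without the mitochondrial limit. The strict filter left no striated or excretory duct-like or ionocyte-like class to compare; beyond that the cause was not tested.

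Depth limits Slc9a3, Scnn1g and Cftr most, since within classes they rarely reached 50 UMIs.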
